A study of Mus musculus with 2 samples.

Results

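The nuclear genes for the mitochondrial respiratory chain and ATP synthase were followed through single nuclei of a mouse liver tumour. Members were taken by symbol, as genes whose names start with Ndufa, Ndufb, Ndufc, Ndufs, Ndufv, Uqcr, Cox4i, Cox5, Cox6, Cox7, Cox8 or Atp5, together with Sdha to Sdhd, and with at least 20 unique molecular identifiers (UMIs, each standing for 1 captured RNA molecule) over all called barcodes. This gave 91 members among the 19683 genes with 20 or more UMIs and the 32285 genes listed. Of 94 matching symbols, Cox8c with 0 UMIs, Cox7b2 with 2 and Cox6a2 with 8 stayed outside. The lowest members were Cox6b2 with 70 UMIs, Cox8b with 72 and Cox4i2 with 82.

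The tissue was frozen mouse liver with hepatocellular carcinoma (HCC), from which an area of residual tumour had been microdissected. Its nuclei were put through the 10x Genomics droplet kit that reads the 3′ ends of RNA. The labels list 2 samples of 1 group, MRD-HCC, and give no treatment, genotype, strain or age. The values came as 1 matrix. Its barcodes share 1 suffix and cannot be tied to either sample, and it is taken here as a single pooled sample: no value has replicates, no test between samples could be made, and every interval covers counting error only. The matrix held 17169 called barcodes and 95130408 UMIs, with 891 to 125991 UMIs a barcode and a median of 2794. Filters kept 16411 barcodes that had 500 UMIs or more, 300 genes or more and no more than 5% of UMIs from mitochondrial DNA.

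The respiratory chain passes electrons from NADH (complex I) and succinate (complex II) through complex III to oxygen at complex IV, and the proton gradient so built drives ATP synthase, or complex V. Most subunits are encoded in the nucleus and made in the cytosol, while a small core of complexes I, III, IV and V is encoded in mitochondrial DNA. The coactivator PGC-1 alpha, encoded by Ppargc1a, is known to raise the nuclear genes through factors such as NRF1 and the estrogen-related receptors (ERR), and liver is rich in mitochondria.

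By name, complex I supplied 38 subunits, complex II 4, complex III 8, complex IV 14 and complex V 17. The subunit label did not hold for all members. The rule also took in 8 Ndufaf genes, which encode assembly factors of complex I, the gene Ndufb1-ps, annotated as a non-coding RNA, and Cox7a2l, known for joining complexes into supercomplexes. Ndufa4 carries a complex I name, although its protein is now placed in complex IV. The genes lay on 19 chromosomes and were short, with a median length of 7382 bp from start to end and 62 of 91 under 10000 bp (range 1205 to 155909 bp; GENCODE annotation of the mm10 build). On the same strand 12 overlapped another gene, and on the opposite strand 33 did. The use of strand in the counting is not stated, so levels of overlapping genes are uncertain, as are those of genes with near-identical processed copies elsewhere.

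Promoter sequence was read for the 74 members that RefSeq's table for GRCm38.p6 holds, over 250 bases before to 50 after the gene's start. An NRF1 type of motif, GCGCA followed by any base and then GCGC, and an ERR type, TCAAGGTCA, were searched on both strands. The NRF1 type stood in 19 of 74 member promoters (25.7%), against 5.19% of 27025 genes and 7.17% of 17491 protein-coding genes. The ERR type stood in 2 of 74 (2.70%), Atp5g3 and Sdhd, against 0.466% of all genes and 0.377% of protein-coding ones. These motif matches are a description of letters, not of bound sites. Atp5g3 encodes the membrane c subunit of ATP synthase, Sdhd a membrane anchor of succinate dehydrogenase and Sdha its flavoprotein. They are shown because Atp5g3 and Sdhd are the members with both motifs and Sdha has the NRF1 type 3 times, which makes them the clearest carriers of the letters through which a Ppargc1a effect would be looked for. The 250 bases before the start are printed 5′ to 3′ on the gene's strand, all 3 genes being on the minus strand, with motif matches in capitals.
Atp5g3, chr2:73911327-73911576: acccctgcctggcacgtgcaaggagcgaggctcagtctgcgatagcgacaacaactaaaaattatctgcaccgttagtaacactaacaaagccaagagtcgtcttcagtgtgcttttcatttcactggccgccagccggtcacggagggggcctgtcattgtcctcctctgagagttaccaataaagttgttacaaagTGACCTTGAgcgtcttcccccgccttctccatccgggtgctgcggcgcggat
Sdhd, chr9:50603850-50604099: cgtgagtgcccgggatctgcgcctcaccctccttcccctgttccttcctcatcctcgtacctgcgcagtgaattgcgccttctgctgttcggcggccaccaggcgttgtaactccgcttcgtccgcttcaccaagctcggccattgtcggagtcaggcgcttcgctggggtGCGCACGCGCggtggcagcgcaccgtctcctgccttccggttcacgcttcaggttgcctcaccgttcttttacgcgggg
Sdha, chr13:74350241-74350490: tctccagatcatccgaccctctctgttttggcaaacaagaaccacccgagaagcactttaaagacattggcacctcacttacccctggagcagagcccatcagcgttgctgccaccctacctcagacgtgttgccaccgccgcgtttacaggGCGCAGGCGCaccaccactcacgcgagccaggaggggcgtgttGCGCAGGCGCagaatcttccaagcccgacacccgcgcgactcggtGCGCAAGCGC
Counted back from the start, with -1 the base before it, the ERR type in Atp5g3 began at -52 and read on the opposite strand. The NRF1 type in Sdhd began at -79, and those in Sdha at -98, -55 and -10. Atp5g3 also had an NRF1 type from 13 and Sdhd an ERR type from 37 bases after the start, outside the bases printed.

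Nuclei were sorted into cell types by marker gates. A gate asked for at least 5 UMIs over at least 3 markers of a type, at a share of the nucleus's UMIs at least 4 times that in free RNA and at least 500 CPM (UMIs per 1000000). The Pkhd1 gate asked the same of Pkhd1 alone, a gene of bile duct epithelium that encodes fibrocystin. The hepatocyte gate asked for at least 15 UMIs over 3 of Cps1, Cyp7b1, Abcb11 and Hnf4a, at a share at least 1 time that in free RNA. Its higher UMI minimum takes in deep nuclei more readily. What part this plays in the depth and levels of hepatocyte-gated nuclei was not tested. Free RNA, which leaks from cells and enters every droplet, was measured in 49929 uncalled barcodes with 500 to under 850 UMIs, 33561887 UMIs in all. The gates took 7031 nuclei, and 598 that met 2 gates were left out. Ungated barcodes numbered 8782, with a median of 1319 UMIs. Of the gates, 9 held 50 nuclei or more.

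Marker levels in each gate were set beside free RNA, although many of the markers had also set the gates. Hepatocyte-gated nuclei held the gating gene Cps1, a urea cycle enzyme, at 3094 CPM, against 1272 in free RNA, but the sum of their 8 hepatocyte markers, 10127 CPM, lay under the 11945 of free RNA. Pkhd1-positive nuclei held their gate gene Pkhd1 at 3981 CPM and Bicc1, another listed duct gene, at 1234, while only 3 of 8 duct markers were over 2 times free RNA. Bicc1 was higher still in fibroblast-gated nuclei (1382 CPM) and mesothelial nuclei (1889 CPM), so it is not particular to duct here. Pkhd1-positive nuclei are therefore called by their gate gene. The other 7 gates had 7 or 8 of their own markers over 2 times free RNA. Those gates were set with the same markers, a few of them left out, so this follows largely from the gating and does not check the names. The pericyte or smooth muscle gate also held the B cell list at 5202 CPM against 104 in free RNA, through 1 gene over 2 times free RNA, and the mesothelial gate held 4 duct markers over it.

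The summed level of the 91 members was lowest in hepatocyte-gated nuclei and highest in T cell-gated nuclei, and free RNA was above every gate. The sum was 3164 CPM in hepatocyte-gated nuclei (95% interval 3145 to 3183; 1943 nuclei). In Pkhd1-positive nuclei it was 4579 CPM (interval 4550 to 4609; 2999 nuclei). Fibroblast-gated nuclei followed the hepatocyte-gated ones at 3981 CPM (3863 to 4103; 255 nuclei). The next 6 sums, the Pkhd1-positive one among them, were close together. Pericyte or smooth muscle nuclei had 4502 CPM (4227 to 4790; 59 nuclei), endothelial nuclei 4541 (4469 to 4614; 773 nuclei) and mesothelial nuclei 4615 (4401 to 4836; 100 nuclei). Stellate nuclei had 4703 CPM (4614 to 4792; 640 nuclei) and Kupffer nuclei, the resident liver macrophages, 4787 (4584 to 4996; 81 nuclei). From pericyte or smooth muscle to Kupffer nuclei, each neighbour in the order had an interval overlapping the next. T cell-gated nuclei stood apart at 6327 CPM (6075 to 6587; 102 nuclei), and free RNA held 11695 CPM (11659 to 11732).

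**Figure D1:**
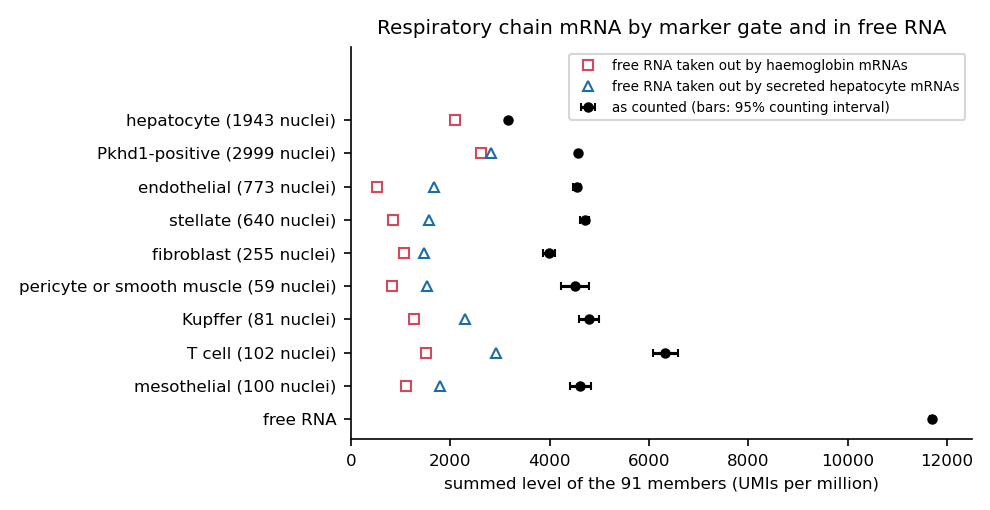
Summed level of the 91 members (x axis, CPM) in each marker gate and in free RNA (y axis). Black points are levels as counted with 95% counting intervals, and open symbols are levels after free RNA was taken out, with its share set by haemoglobin or by secreted hepatocyte mRNAs. As counted, hepatocyte-gated nuclei have the lowest sum of the 9 gates at 3164 and T cell-gated nuclei the highest at 6327. With free RNA taken out by haemoglobin, endothelial nuclei are lowest at 515, and by secreted hepatocyte mRNAs fibroblast-gated nuclei are lowest at 1479.

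The gates differed in depth and in free RNA. The lowest and the highest member sum went with the lowest and the highest haemoglobin, but the gates between them did not keep that order. Hepatocyte-gated nuclei had a median of 14859 UMIs and haemoglobin mRNA, which red blood cell precursors make, at 131 CPM. Pkhd1-positive nuclei had a median of 5487 UMIs and haemoglobin at 242 CPM, and T cell-gated nuclei 2390 UMIs and 592 CPM. Fibroblast-gated nuclei, with the second lowest member sum, held haemoglobin at 359 CPM, and endothelial nuclei, with a sum close to that of Pkhd1-positive nuclei, at 495. Haemoglobin stood at 1437 CPM in free RNA. If all haemoglobin is free RNA, that RNA made up 9.13% of UMIs in hepatocyte-gated, 16.8% in Pkhd1-positive and 41.2% in T cell-gated nuclei. Taking it out left 2096 CPM of members in hepatocyte-gated, 2614 in Pkhd1-positive and 1512 in T cell-gated nuclei. The order of the gates changed with this step, since endothelial nuclei then had the lowest sum, 515 CPM, and Pkhd1-positive nuclei the highest. With the share set by secreted hepatocyte mRNAs, which cannot be used for the hepatocyte gate, 2827 CPM were left in Pkhd1-positive and 2923 in T cell-gated nuclei, and fibroblast-gated nuclei were lowest at 1479. Thinned to 2000 UMIs each, nuclei held a median of 7 member UMIs in the hepatocyte gate, 9 in the Pkhd1 gate and 13 in the T cell gate.

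Within a gate, shallow nuclei also had more member mRNA per UMI sequenced. Pkhd1-positive nuclei under 2500 UMIs held members at 6700 CPM and haemoglobin at 625, and those of 20000 UMIs or more held 3704 and 146. Hepatocyte-gated nuclei went from 8291 CPM of members and 1273 of haemoglobin to 2860 and 98.2 over the same depths. Thus members and haemoglobin fell together with depth in both gates, and what share of the fall is due to free RNA was not tested.

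Set against free RNA gene by gene, most members were lower in nuclei, and most of those that were higher encode assembly factors. Levels were compared as the log2 ratio of CPM with a pseudocount of 1, over genes with at least 20 UMIs in the 2 groups together, and a member was counted as higher or lower at 2-fold or more. In Pkhd1-positive nuclei 1 of 91 members was higher than in free RNA, against 23.2% of all genes tested, and 62 were lower, against 14.3%. The median member had a log2 ratio of -1.43, and the median gene 0.33. In hepatocyte-gated nuclei 1 of 90 members was higher, against 14.8% of genes, and 74 were lower, against 18.7%, with medians of -1.98 for members and 0.09 for genes. Cytosolic ribosomal protein genes, another set of short and abundant mRNAs, summed 3.95-fold lower in Pkhd1-positive nuclei than in free RNA, where the members were 2.55-fold lower (2.54 to 2.57).

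Of the 7 members above free RNA in Pkhd1-positive nuclei, 5 were Ndufaf genes. Ndufaf7, a methyltransferase that modifies a complex I subunit, stood at 33.8 CPM against 15.5 in free RNA. The others were Ndufaf1, Ndufaf5, Ndufaf4 and Ndufaf2, with log2 ratios from 0.65 to 0.74. The subunits were Ndufs4, an accessory subunit of complex I, at 170.5 CPM against 114.8 (log2 ratio 0.57), and Ndufs1, its largest iron-sulfur subunit, at 126 against 87.3 (0.53). Both are long genes, of 100464 and 33238 bp. In hepatocyte-gated nuclei Ndufaf6 was the 1 member 2-fold above free RNA, at 34.0 CPM against 16.4. There too, Ndufs4 lay above free RNA, at 160.0 CPM, while Ndufs1 lay level with it, at 84.1.

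Members of complexes III and IV were the furthest under free RNA. Uqcr11, a small subunit of complex III, was lowest in both gates, at 51.0 CPM in Pkhd1-positive and 28.8 in hepatocyte-gated nuclei against 270.5 in free RNA. Ndufa1, a membrane-arm subunit of complex I, stood at 19.3 and 9.67 CPM against 95.9. By complex, the summed subunits in Pkhd1-positive nuclei were under free RNA by 1.48-fold for complex II, 2.32-fold for complex I, 2.70-fold for complex V, 3.15-fold for complex IV and 3.33-fold for complex III. Hepatocyte-gated nuclei had complex II nearest to free RNA at 1.84-fold under it and complex IV furthest at 5.27-fold. The Ndufaf factors were the exception as a sum, 1.28-fold and 1.25-fold above free RNA in the 2 gates. Among them, Ndufaf8 and Ndufaf3 lay under free RNA in both gates. Ndufaf8 was at 10.8 and 6.73 CPM against 34.8, and Ndufaf3 at 4.54 and 4.79 against 7.27.

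The position of a member against free RNA moved with the length of its gene. Across the 91 members, Spearman's rho between gene length and the Pkhd1-positive log2 ratio was 0.56, and over 17773 genes 0.25. In hepatocyte-gated nuclei the values were 0.56 over 90 members and 0.22 over 17843 genes. Genes of 1 library share its depth and are not replicates, so these values describe and do not test. The 29 members under 5000 bp had a median log2 ratio of -1.76 in Pkhd1-positive nuclei, the 33 of 5000 to under 10000 bp -1.61, the 16 of 10000 to under 20000 bp -1.02, and the 13 of 20000 bp or more -0.27. All genes in these length classes had medians of -0.19, 0.01, 0.23 and 0.56, so members lay under genes of like length in every class.

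**Figure D2:**
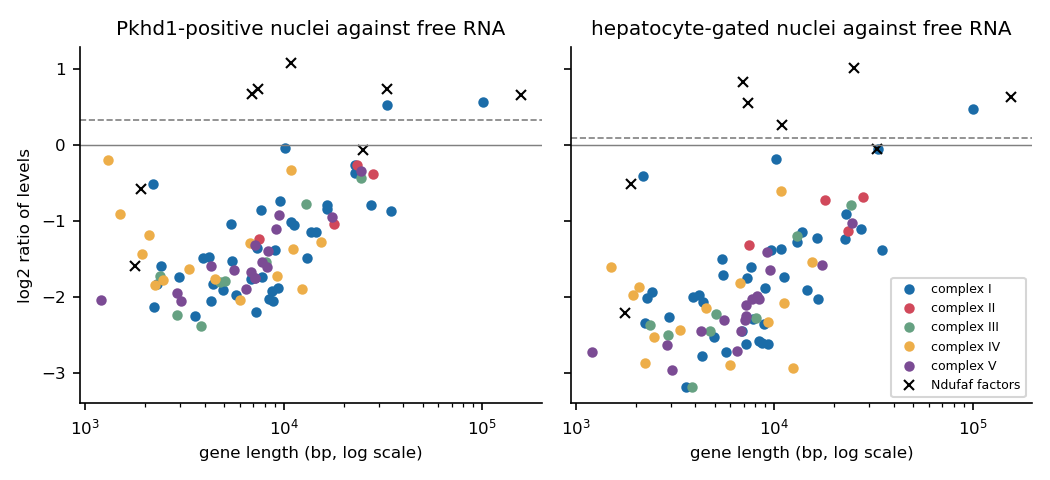
Log2 ratio of each member's level in nuclei to its level in free RNA (y axis) against gene length in bp (x axis, log scale), for Pkhd1-positive nuclei on the left and hepatocyte-gated nuclei on the right. Points are members coloured by complex by name, crosses are the 8 Ndufaf factors, and the dashed line is the median of all genes tested. Members under 5000 bp have a median of -1.76 on the left and -2.36 on the right. Those of 20000 bp or more have -0.27 and -0.79, and most Ndufaf factors lie at or above 0.

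Between the 2 epithelial gates, Pkhd1-positive nuclei held member mRNA at a higher share of UMIs than hepatocyte-gated nuclei, 1.45-fold in sum (1.43 to 1.46). Of 89 members tested, 3 were at least 2-fold higher, against 20.0% of genes, and 1 was at least 2-fold lower, against 10.7%. The ratio was above 0 for 83 of 89, with a median of 0.55 against 0.25 for all genes. Thus the members were shifted together by less than 2-fold. Ribosomal protein genes were 1.92-fold higher and the mitochondrially encoded subunits 2.11-fold higher, and both kinds of RNA were, like the members, much higher in free RNA than in either gate.

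In complex I, Ndufs1 stood at 126 CPM in Pkhd1-positive and 84.1 in hepatocyte-gated nuclei (log2 ratio 0.58), and Ndufv1, which binds NADH, at 18.5 and 13.3 (0.45). The summed complex I subunits were 1.38-fold higher. In complex II the members went separate ways: Sdhc, a membrane anchor, stood at 72.4 and 39.3 CPM, whereas Sdhb, the iron-sulfur subunit, stood at 35.6 and 44.3. Sdha was at 113 and 90.8 CPM, and the 4 genes together were 1.25-fold higher.

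Complexes IV and V had the larger sums of difference, at 1.68-fold and 1.57-fold, against 1.43-fold for complex III. Cox6c stood at 106.5 CPM in Pkhd1-positive and 51.3 in hepatocyte-gated nuclei, and Cox5b at 36.0 and 17.1. They are nuclear subunits around the catalytic core of complex IV, and both were 2-fold higher. Cox4i1, the common form of the regulatory subunit 4, was at 110 and 60.7 CPM. In ATP synthase, Atp5b, the catalytic beta subunit, was at 151 and 75.9 CPM, while Atp5a1, the alpha subunit, differed less, at 144 and 117. In complex III, Uqcrfs1, the Rieske iron-sulfur protein, was at 21.7 and 15.9 CPM, and the core subunit gene Uqcrc1 at 39.8 and 29.5. The Ndufaf factors summed to 207 and 202 CPM. Among them Ndufaf6 ran the other way, at 15.7 against 34.0 CPM.

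These 2 gates differ in depth and haemoglobin, so the comparison was repeated in nuclei of 5000 to under 10000 UMIs, a band chosen after the data were seen. It held 1174 Pkhd1-positive nuclei (median 6756 UMIs) and 373 hepatocyte-gated nuclei (median 8096). Haemoglobin was then 233 and 238 CPM. The member sum was 4619 CPM against 4057, or 1.14-fold higher (1.12 to 1.16). Of 87 members tested, 1 was 2-fold higher, against 20.4% of genes, and 1 was 2-fold lower, against 12.8%. The member median, 0.19, was the same as that of all genes, 0.19, and 44 of 87 members were above it. The members' median thus did not differ from that of all genes in this band. Haemoglobin was alike there, but other RNA that is high in free RNA was not: ribosomal protein genes were at 9483 and 7790 CPM, mitochondrially encoded subunits at 6138 and 5101, and secreted hepatocyte mRNAs at 7182 and 12274.

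A few members still stood apart in that band. Ndufaf6, an assembly factor, was at 15.0 CPM in Pkhd1-positive and 37.1 in hepatocyte-gated nuclei, 2.47-fold lower (1.89 to 3.22). Ndufaf5, also an assembly factor, was at 17.1 and 7.83 CPM, 2.18-fold higher (1.40 to 3.56). Sdhb was at 36.8 and 58.9 CPM, 1.60-fold lower (1.32 to 1.94). Among core subunits, Ndufs1 was at 133 and 80.7 CPM, 1.65-fold higher (1.43 to 1.90), and Atp5b at 153 and 103, 1.49-fold higher (1.31 to 1.69). Cox5b, which was 2-fold higher over all depths, was level here at 35.2 and 35.1 CPM, and Cox6c was at 100.2 and 76.9. The summed complexes lay between 1.05-fold for complex III and 1.22-fold for complex V. Complex II was 1.07-fold (0.976 to 1.16) and complex III 1.05-fold (0.983 to 1.12), so their intervals include no difference.

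**Figure D3:**
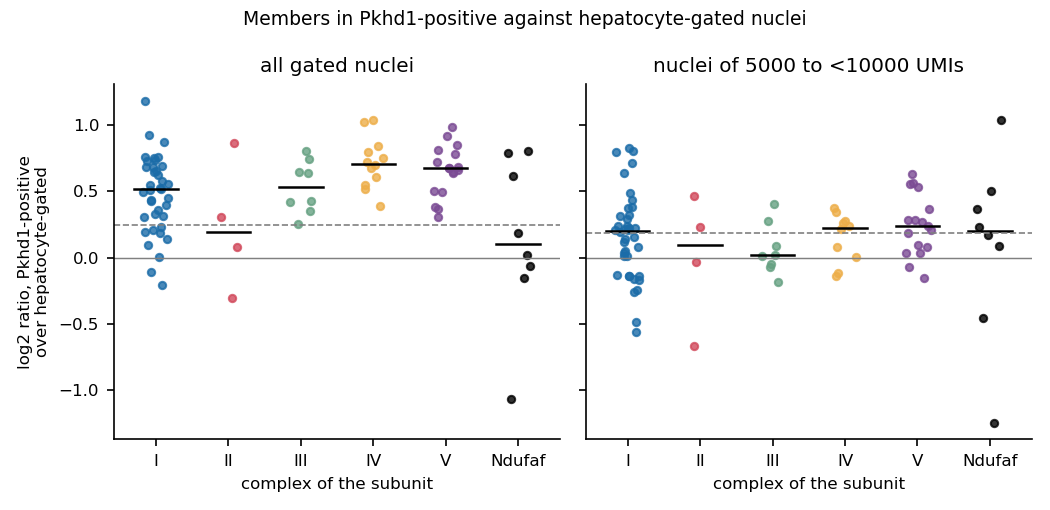
Log2 ratio of each member in Pkhd1-positive over hepatocyte-gated nuclei (y axis) by complex (x axis), for all gated nuclei on the left and for nuclei of 5000 to under 10000 UMIs on the right. Points are members placed in the complex of their name, short black lines their medians, and the dashed line the median of all genes tested. Most points lie above the dashed line on the left and around it on the right, while Ndufaf6, the lowest Ndufaf point, is below -1 in both.

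Other mitochondrial lists did not all move with the members between these gates. In the depth band, 20.4% of all genes tested were 2-fold higher in Pkhd1-positive nuclei and 12.8% were 2-fold lower. The summed genes of the TCA cycle and pyruvate dehydrogenase were there at 1261 CPM in Pkhd1-positive and 1610 in hepatocyte-gated nuclei. Of these 17 genes, 1 was higher by 2-fold and 1 lower. The lower one was Suclg2, a subunit of the GTP-forming succinyl-CoA synthetase (log2 ratio -2.05), and the higher one Pdha1 of pyruvate dehydrogenase (1.05). Of 31 assembly factors outside the symbol rule 2 were higher and 2 lower, with Sco2, a copper carrier for complex IV, lowest at -3.00. Among 14 regulators of mitochondrial biogenesis tested, Ppargc1a was highest (2.81) and Esrrg, an ERR receptor, lowest (-3.03). Of 11 hypoxia genes tested 9 were higher, Ndrg1 most (4.61). Pdk4, a kinase that inhibits pyruvate dehydrogenase, had a ratio of 3.89.

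Against all other gated nuclei together, hepatocyte-gated nuclei held a member sum 0.690 times as high (0.684 to 0.695). No member of 91 was 2-fold higher, against 9.28% of genes, and 5 were lower, against 25.2%, with Ndufa1, Atp5e, Cox5b and Cox6c among them. In T cell-gated nuclei the sum was 1.67-fold higher (1.60 to 1.74), with 24 of 91 members 2-fold higher, against 15.0% of genes, and 2 lower, against 18.6%. Cox5b led them among members with 20 or more UMIs in the gate, at 82.6 CPM against 25.9, and Ndufb9 and Cox6b1 followed. These nuclei also held the most free RNA by haemoglobin, and the part this plays in the 24 calls was not tested. The pericyte or smooth muscle gate had 11 members higher, against 14.6% of genes, and 5 lower, against 28.2%, on 59 nuclei. The other 6 gates had few such members. Pkhd1-positive nuclei had 0 higher (13.2% of genes) and 0 lower (13.7%), endothelial nuclei 1 (12.2%) and 1 (14.4%), and stellate nuclei 3 (9.97%) and 0 (13.7%). Fibroblast-gated nuclei had 2 higher (13.5%) and 1 lower (18.2%), Kupffer nuclei 3 (13.2%) and 2 (19.6%), and mesothelial nuclei 3 (12.9%) and 2 (24.6%).

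Apart from these counts and sums, a few members stood high in 1 gate or in few gates, most of them tissue-restricted forms of a subunit. Ndufaf1, an assembly factor of the complex I membrane arm, was at 210.5 CPM in mesothelial-gated nuclei (80 UMIs), against 13.7 to 22.6 CPM in the 7 other gates that had any, 0 UMIs in the T cell gate and 11.2 CPM in free RNA. It was 12.1-fold above the other gated nuclei (9.49 to 15.2). At least 1 UMI was found in 42 of 100 mesothelial nuclei and in 13.1% of 6852 others, although these others were deeper (median 5870.5 against 3128 UMIs). No single nucleus held more than 11 of the 80 UMIs. Mesothelial cells line the liver surface. This gate also held Bicc1 at 1889 CPM, and no gene on the same or opposite strand overlaps Ndufaf1 in the annotation.

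Cox4i2, the form of subunit 4 known from lung and vascular smooth muscle, was at 31.6 CPM in the pericyte or smooth muscle gate and at 0.208 in hepatocyte-gated, 0.459 in Pkhd1-positive and 4.66 in fibroblast-gated nuclei. That level rests on 7 UMIs in 6 of 59 nuclei (10.2%), against 28 of 6893 others (0.406%). The common form Cox4i1 stood at 108 CPM in the same gate. Ndufa4l2, a relative of Ndufa4 known to respond to hypoxia, was at 45.2 CPM in that gate on 10 UMIs in 9 nuclei, and between 0 and 6.56 elsewhere. It was there nearly level with Ndufa4, at 54.2 CPM, whereas T cell-gated nuclei had 117 CPM of Ndufa4 and 0 UMIs of Ndufa4l2. Ndufa4l2 overlaps Shmt2 on the opposite strand.

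Cox6b2, known from testis, was at 8.39 CPM in fibroblast-gated nuclei on 9 UMIs, each in a separate nucleus. That was 29.7-fold above the other gated nuclei together (11.7 to 70.5), among them hepatocyte-gated nuclei with 0 UMIs. It was not confined to that gate, with 5.26 CPM in mesothelial (2 UMIs), 2.67 in T cell-gated (1 UMI) and 2.19 in stellate nuclei (5 UMIs). The common form Cox6b1 was at 55.0 CPM in fibroblast-gated nuclei. Cox7a1, the form of heart and skeletal muscle, was at 3.89 CPM in endothelial nuclei on 13 UMIs. T cell-gated nuclei held it at 5.33 CPM on 2 UMIs and the pericyte or smooth muscle gate at 4.52 on 1, all under the 6.11 CPM of free RNA. Cox8b, also a muscle form, gave at most 17 UMIs in any gate, and Cox6a2, which was not a member, at most 1. The tissue-restricted forms that gates held above free RNA were thus few and rested on low counts.

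**Figure D4:**
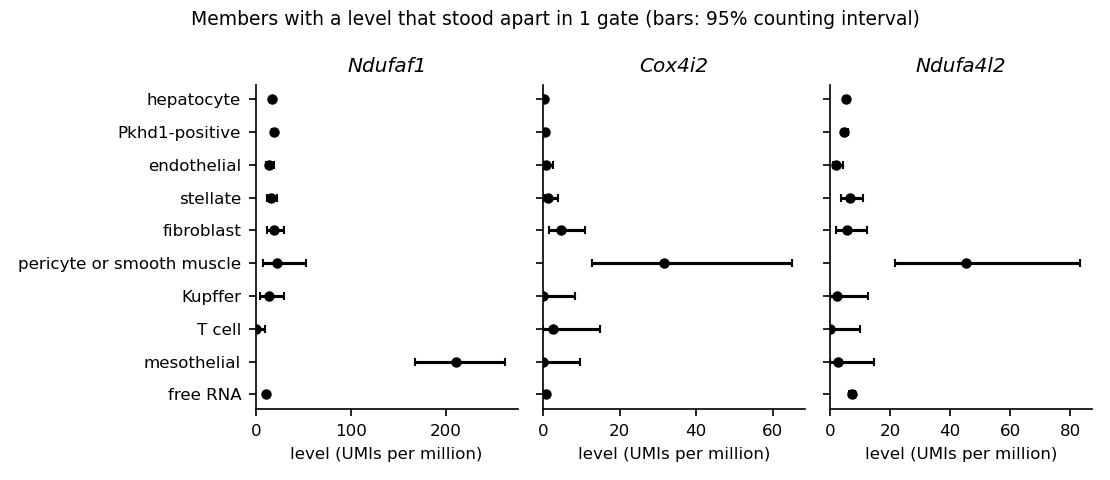
Level of Ndufaf1, Cox4i2 and Ndufa4l2 (x axes, CPM) in each marker gate and in free RNA (y axis), with 95% counting intervals as bars. Ndufaf1 is high in the mesothelial gate at 210.5, and Cox4i2 and Ndufa4l2 in the pericyte or smooth muscle gate at 31.6 and 45.2, where the bars are wide because the UMIs are few.

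The last comparison split Pkhd1-positive nuclei by Ppargc1a, whose level there was 1153 CPM against 292 in free RNA. T cell-gated nuclei held it at a like level, 1162 CPM, Kupffer nuclei at 461 and endothelial nuclei at 380. The remaining gates held 90.3 to 287 CPM, with 138 in hepatocyte-gated nuclei. Each nucleus was thinned at random to 2000 UMIs, since deep nuclei show more Ppargc1a UMIs, and 148 shallower nuclei were left out. On the thinned counts 1024 nuclei had 0 Ppargc1a UMIs, 1082 had 1 to 2 and 745 had 3 or more. Their median depths before thinning were 5048.5, 5470.5 and 6845 UMIs.

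Members differed little between these groups. Their sum was 4696 CPM (4603 to 4791) with 0 Ppargc1a UMIs, 4878 (4785 to 4972) with 1 to 2, and 4941 (4829 to 5055) with 3 or more. The last was 1.05-fold above the first (1.02 to 1.08). The median nucleus held 9, 9 and 10 member UMIs of 2000. No member of 87 was 2-fold higher with 3 or more Ppargc1a UMIs, against 2.27% of genes, and none was 2-fold lower, against 5.39%. The member median was 0.07 and that of all genes -0.06. With 1 to 2 Ppargc1a UMIs no member was 2-fold higher (0.588% of genes) or lower (1.01% of genes) than with 0. The 2 comparisons share the nuclei without Ppargc1a UMIs.

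By complex, only the sums of complexes II and V had intervals above 1. Complex II subunits were at 260 CPM with 3 or more Ppargc1a UMIs against 209 with 0, 1.24-fold (1.08 to 1.43), and complex V at 1346 against 1232, 1.09-fold (1.03 to 1.16). Complex I was 1.01-fold (0.962 to 1.07), complex III 1.03-fold (0.935 to 1.14) and complex IV 1.02-fold (0.950 to 1.10). In complex II, Sdha was at 126 CPM against 98.6, Sdhb at 48.3 against 35.2, Sdhc at 73.8 against 60.1 and Sdhd at 12.1 against 15.6.

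Uqcrc2, a core subunit of complex III, had the highest single ratio, at 90.6 CPM against 58.1, 1.56-fold (1.21 to 2.01). Ndufaf4, at 69.1 against 47.9 CPM, and Cox7a2, the common form of subunit 7a, at 63.8 against 44.4, followed with log2 ratios of 0.52 and 0.51. The core subunit Ndufs1, at 141 against 110 CPM, was also above 0. Ndufb7, a small subunit of the complex I membrane arm, had the lowest ratio, at 20.1 against 34.2 CPM, 1.70-fold lower (1.09 to 2.70). Each of these is 1 of 87 ratios, and intervals of single members are not adjusted for that number.

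Members with and without the NRF1 type had like medians here. The 19 members with the NRF1 type had a median log2 ratio of 0.05 by Ppargc1a and the 52 tested without it 0.06. Atp5g3, with both motifs, was at 62.4 CPM against 58.6, and Sdhd, also with both, had a log2 ratio of -0.35. For Pkhd1-positive over hepatocyte-gated nuclei at all depths, the medians were 0.68 with the NRF1 type (19 members) and 0.55 without (54).

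Haemoglobin and other RNA that is high in free RNA were lower where Ppargc1a was higher. With 3 or more Ppargc1a UMIs, haemoglobin was 0.819 times its level without (0.719 to 0.932), secreted hepatocyte mRNAs 0.763 times, mitochondrially encoded subunits 0.809 times and ribosomal protein genes 0.877 times. Whether the last 3 differ through free RNA or within the nuclei was not tested. With free RNA taken out by haemoglobin, the member sums were 2169, 2479 and 2871 CPM over the 3 groups, and the last was 1.32 times the first. By secreted hepatocyte mRNAs this ratio was 1.33. Without thinning it was 0.940, from 4773 CPM in 590 nuclei to 4486 in 1592, whose median depths were 3535.5 and 7095 UMIs. Thinned to 1000 UMIs it was 0.990. The direction of the member sum with Ppargc1a therefore changed with how depth and free RNA were treated.

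Among other lists, TCA cycle and pyruvate dehydrogenase genes were 1.12-fold higher with 3 or more Ppargc1a UMIs (1.05 to 1.18). None of 17 was past 2-fold, against 2.27% of all genes higher and 5.39% lower. Hypoxia genes were 1.58-fold higher, led by Hk2, a hexokinase (log2 ratio 1.56). Pdk4 had a ratio of 1.16 and Esrrg one of -1.89, and the summed hepatocyte markers were 0.722 times as high.

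**Figure D5:**
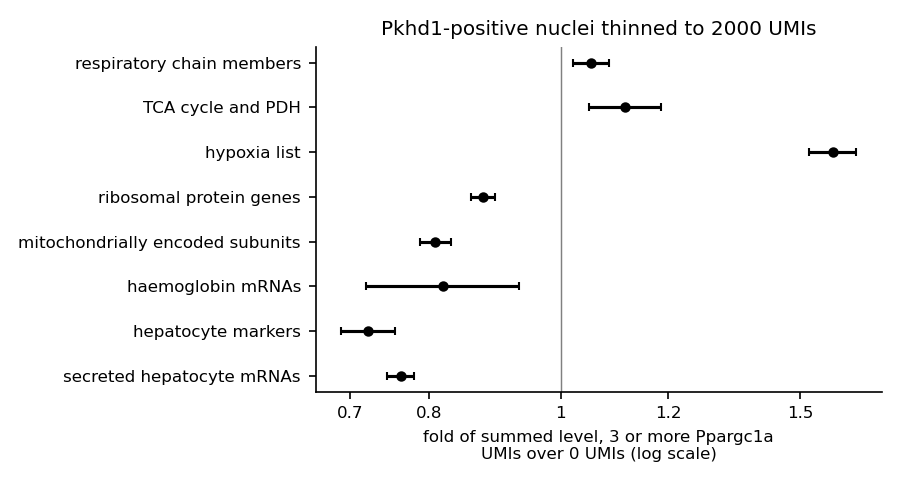
Fold of the summed level in Pkhd1-positive nuclei with 3 or more Ppargc1a UMIs over those with 0, all thinned to 2000 UMIs (x axis, log scale), for the members and other gene lists (y axis). Points are folds and bars 95% counting intervals. The members lie at 1.05, between the hypoxia list at 1.58 and the haemoglobin, secreted, mitochondrially encoded and ribosomal lists, at 0.763 to 0.877.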

How the data were processed

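RNA of single nuclei was measured in 2 samples of 1 group, deposited as 1 matrix. The authors deposited UMI counts per gene and barcode, not normalized, in a filtered and an unfiltered matrix. Cell Ranger 5.0 and the mm10 build are listed in the submitters' processing notes. For the counting of introns and the use of strand, the method was not given in the sources used here. The filtered matrix held 64.3% of 147834570 UMIs.

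The members, gene lists and motifs were chosen with earlier results of these data known, and the gate thresholds, with some listed markers left out of the gates, after counts were seen. UMIs were summed per gate and scaled to CPM, a common total. Levels carry exact Poisson 95% intervals and ratios exact conditional binomial ones. No doublet caller was run. PCR duplicates are removed by UMIs, and intervals cover counting error only. Free RNA shares were the ratio of haemoglobin, or of 10 secreted hepatocyte mRNAs, in the gate to that in free RNA. Thinning used seed 7.

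Named members are, for each comparison and among members with at least 50 UMIs, the 8 highest and 8 lowest ratios, with a list of core subunits and isoform pairs. The values of 1 member that this rule takes in are not reported here. Members high in 1 gate, some on fewer UMIs, were picked after their values were seen, as was the depth band. Promoters came from RefSeq. The counting steps were tested on simulated data. Tools were Python 3.11.15, numpy 2.4.6, scipy 1.17.1, pandas 2.3.3 and matplotlib 3.10.9. Alternatives changed filters, gates, members, pseudocount, UMI minimum, weighting, thinning and free RNA.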

Additional observations from a re-analysis of the deposited data

How the results depend on the processing

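Over all alternatives run, the summed fold stayed between 0.674 and 0.729 for hepatocyte-gated against the other gated nuclei, 0.376 to 0.463 for Pkhd1-positive nuclei and 0.256 to 0.320 for hepatocyte-gated nuclei against free RNA, and 1.14 to 1.48 for Pkhd1-positive against hepatocyte-gated nuclei. The split by Ppargc1a ran from 0.940 to 1.33 and so changed direction. It was 0.990 when thinned to 1000 UMIs, 0.940 without thinning, 1.01 with gates 1.5 times as strict, 1.09 when thinned to 5000 UMIs, 1.32 and 1.33 with free RNA taken out by haemoglobin and by secreted mRNAs, and 1.22 by haemoglobin in nuclei of 5000 to under 10000 UMIs, a band added after the data were seen. The cause of these moves was not tested.

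Hepatocyte-gated against the other gated nuclei gave 0.698 with at least 2000 UMIs, 0.715 with at most 1% mitochondrial UMIs, 0.674 with subunits only, 0.729 with nuclei of 2 gates kept and 0.711 with nuclei weighted equally. Against free RNA, Pkhd1-positive nuclei gave 0.389, 0.376 and 0.379 under the first 3 of these, 0.386 with stricter gates and 0.463 with free RNA from barcodes of 1 to 100 UMIs, and hepatocyte-gated nuclei gave 0.263 with at most 1% mitochondrial UMIs, 0.265 with stricter gates, 0.256 with subunits only and 0.320 with that free RNA. Pkhd1-positive against hepatocyte-gated nuclei gave 1.43 with at most 1% mitochondrial UMIs, 1.48 with subunits only, 1.41 with nuclei of 2 gates kept, 1.40 weighted equally, 1.25 with free RNA taken out by haemoglobin, 1.38 thinned to 2000 UMIs and 1.14 in the depth band.

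Members lower than free RNA, 62 for Pkhd1-positive and 74 for hepatocyte-gated nuclei, ranged from 53 to 63 and from 68 to 75. The other counts given alternatives were of 5 members or fewer and moved by at most 4. For the hepatocyte gate against the others, higher members went from 0 to 1 (at most 1% mitochondrial UMIs, stricter gates) and lower ones from 5 to 3 (at most 1%) and 1 (nuclei of 2 gates kept). The 1 member above free RNA in each of the 2 gates went to 0 with subunits only, pseudocount 5 and free RNA of 1 to 100 UMIs. For Pkhd1-positive against hepatocyte-gated nuclei, 3 higher went to 1 (pseudocount 5, nuclei of 2 gates kept, the depth band) and 1 lower to 0 (subunits only, pseudocount 5, nuclei of 2 gates kept). By Ppargc1a, 0 higher went to 1 (thinned to 1000 or 5000 UMIs, 5 or more Ppargc1a UMIs) and 3 (the depth band), and 0 lower to 1 (at most 1%, stricter gates, not thinned, 5 or more) and 3 (thinned to 1000). Of 1497 values of single members under the alternatives, 242 left the counting interval. A change of direction was counted only for members 2-fold apart in the main setting, and 0 were found. Most of the 1497 values were of smaller ratios, whose changes of sign were not counted.

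No paired analysis was possible because no barcode could be tied to 1 of the samples. For that reason neither sample was left out as an alternative. Differences between animals cannot be seen here. Gates of 59 to 102 nuclei give single members few UMIs. A member without UMIs in 1 of them is therefore not shown to be absent, and its count gives only an upper bound on its level. Free RNA held member mRNA at a higher CPM than any gate.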
